A study of Rattus norvegicus with 8 samples.

Results

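Circular RNAs (circRNAs) whose back-splice ends lie at most 1000 bases apart were examined in rat cerebral cortex. They were chosen by position alone, as all circRNAs with end minus start plus 1 of 1000 or less, and made up 3902 of the 51995 circRNAs in the deposited table (7.50%). The samples were total RNA from 4 rats with moderate traumatic brain injury (mTBI), from the injured-side cortex around the lesion, and from the matching cortical site of 4 sham rats, all taken 24 h after injury. The sources used here do not give strain, sex, age or the way the injury was made. Animals were perfused before dissection, and each gave 1 library.

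A circRNA forms when a 5′ splice site is joined backwards to a 3′ splice site that lies upstream of it, a reaction called back-splicing. The closed circle has no free ends, resists exonucleases and is known to be abundant in brain. Here the upstream end of a circRNA is the joined 3′ splice site and the downstream end is the joined 5′ splice site, read along the strand of transcription. The distance between the ends is a genomic span and not the length of the circle, since introns inside it may be removed. Short spans leave room for an individual exon or a few exons with short introns. The table names no genes and gives positions on Rnor_6.0, so circRNAs are called by chromosome, start and end, no host gene, exon or sequence is given, and tissue markers were not checked.

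Levels are in RPM, junction reads scaled to library size, and a circRNA is called listed in a library where its value is above 0. The 8 libraries held 4966 to 5874 RPM over all circRNAs, and the 2 lowest totals were those of mTBI replicates 1 and 2. If the smallest listed value stands for 2 reads, the libraries held 76300000 to 77700000 reads. On that reading, no 2 libraries of a group agreed within sampling noise, so none was taken for a library deposited a second time (chi-square divided by its degrees of freedom, 3.14 to 4.03 for pairs over all circRNAs). The labels give separate samples for each animal, so p-values measure the spread between these animals. Where short and longer circRNAs are compared within libraries, the same circRNAs recur in each library, and the p-values do not measure the spread between circRNAs. In bulk tissue, fewer cells of a type and less RNA per cell cannot be told apart.

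Spans ran from 138 to 1000 bases, and their median was 542, against 13823 for the 48093 longer circRNAs. Short circRNAs lay on both strands about equally, with 1934 on the plus and 1968 on the minus strand. Each library listed 1513 to 1619 of them, which was 6.82% to 7.35% of the circRNAs it listed, and they held 509 to 600 RPM, or 9.99% to 10.7% of the total. Very short spans were few and low: the 179 circRNAs of up to 200 bases averaged 0.0220 RPM, and 65.9% of them were listed in 1 library only. The mean level was highest at 501 to 600 bases, at 0.234 RPM over 448 circRNAs. It was 0.0981 RPM over the 3354 circRNAs of 1001 to 2000 bases. In the first of these ranges, chr19:25886356-25886887, chr15:47963486-47964008 and chr6:12179226-12179776 averaged 26.6, 17.5 and 13.5 RPM, against 105 RPM for all 448 together. The median level was 0.0113 RPM in both ranges.

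**Figure D1:**
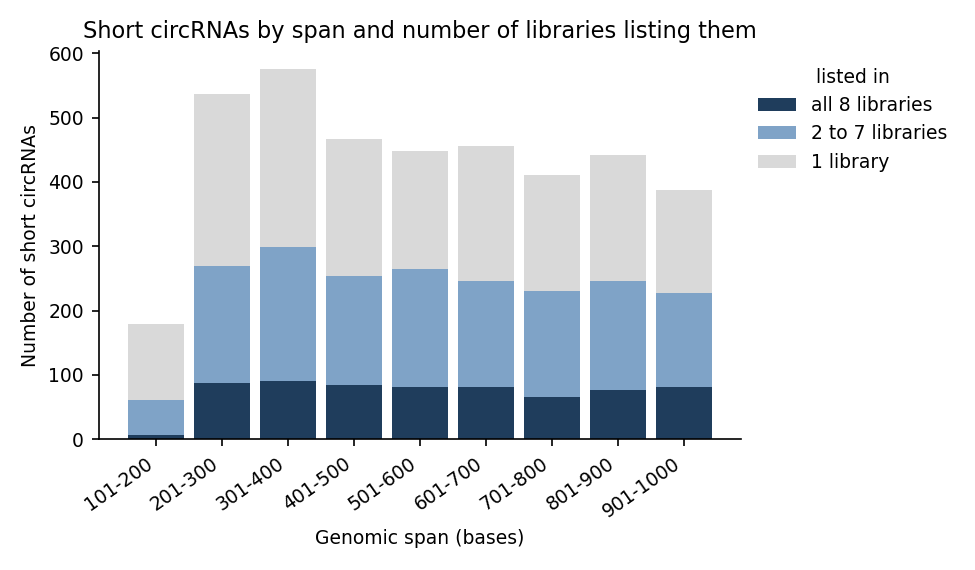
Number of short circRNAs (y axis) by genomic span in steps of 100 bases (x axis), with the bars divided by whether a circRNA was listed in all 8 libraries, in 2 to 7 or in 1. Of the 179 circRNAs of up to 200 bases 6 were listed in all 8 libraries, against 88 of the 537 of 201 to 300 bases.

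The average short circRNA stood above the average longer one in every library. Over listed circRNAs, the mean level was 0.348 ± 0.0150 RPM for short and 0.231 ± 0.00712 RPM for longer ones (SD, n = 8 libraries, exact sign-flip permutation test within libraries, two-sided, p = 0.00781, the smallest this design can give; adjusted over 2 such comparisons, p = 0.00781). The difference of 0.117 RPM had the same direction in 8 of 8 libraries. The typical circRNA did not follow it: the median listed level was the same for short and longer circRNAs within each library, between 0.0643 and 0.0655 RPM.

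The higher mean lay in a small number of abundant circles. Among short circRNAs, 41 (1.05%) held 50% of the summed level, while 900 longer ones (1.87%) were needed for the same share of theirs. A mean of at least 1 RPM was reached by 99 short circRNAs (2.54%) and 783 longer ones (1.63%). Short circRNAs took 2 of the 10 highest places in the whole table, 9 of the first 50 and 15 of the first 100.

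The 12 most abundant short circRNAs had means of 6.49 to 36.6 RPM and coefficients of variation (the pooled within-group SD divided by the mean) of 0.0519 to 0.220, the highest at chr10:35876013-35876397. The highest was chr7:52745151-52745558 on the minus strand, which spans 408 bases and ranked 5th of all circRNAs. It measured 39.8, 37.4, 36.8 and 34.7 RPM in the sham animals and 33.1, 36.3, 37.5 and 36.8 RPM in the injured ones, so the groups overlapped. The second, chr19:25886356-25886887 (minus strand, 532 bases), measured 28.5, 26.6, 28.9 and 28.5 RPM in the sham animals and 22.9, 26.1, 24.9 and 26.6 RPM in the injured ones. Its highest mTBI value and its lowest sham value both round to 26.6 RPM, and the other mTBI values lay lower.

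Next came chr15:47963486-47964008 (plus strand, 523 bases) with 17.2 ± 2.19 RPM in sham against 17.8 ± 1.69 RPM in mTBI (SD, n = 4 each, as for all group values that follow). This circRNA shared neither end with any other in the table. The minus-strand chr17:29730437-29731094 (658 bases) measured 14.7, 13.1, 16.2 and 17.6 RPM in the sham animals and 18.0, 18.1, 18.1 and 20.2 RPM in the injured ones. It was the only 1 of the 12 whose groups did not overlap, and it did not pass the test (log2 change 0.28 with an SE of 0.12; adjusted p = 0.973, limma). Its longer partner chr17:29730437-29757605, which shares its downstream end, stood at 1.60 ± 0.237 RPM in sham against 1.90 ± 0.128 RPM in mTBI. Over the 12, log2 changes ran from -0.19 to 0.28 and the smallest limma adjusted p was 0.973.

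**Figure D2:**
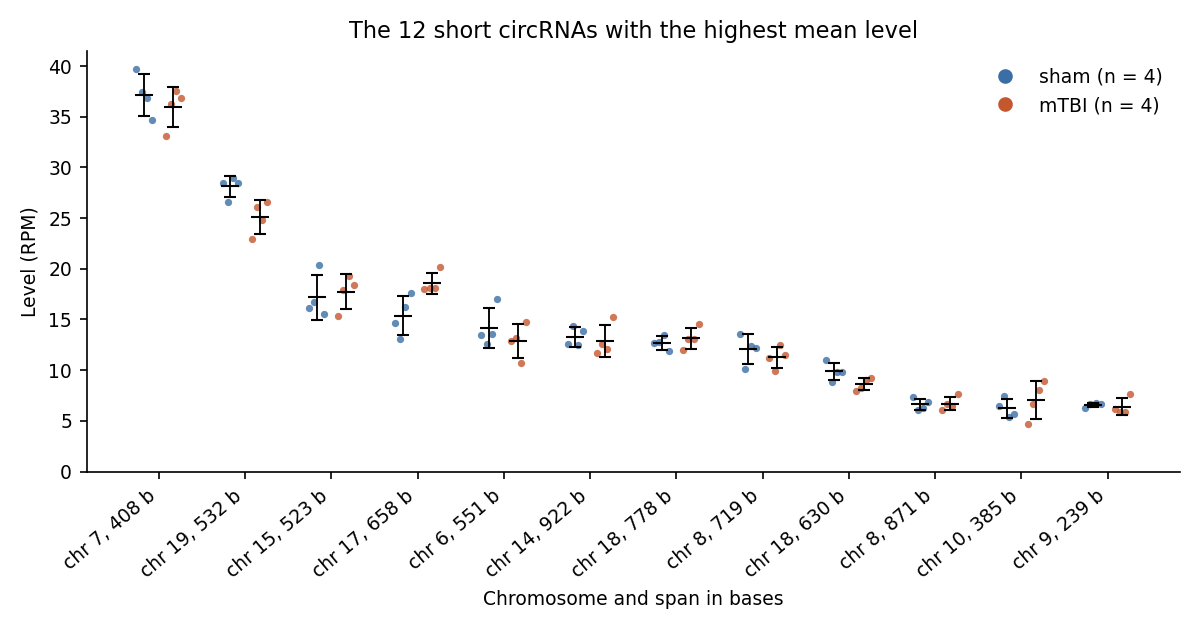
Level in RPM (y axis) of the 12 most abundant short circRNAs (x axis, by chromosome and span), with 4 sham and 4 mTBI libraries as points and the mean ± SD as bars. The groups overlap for 11 of the 12, and the exception, on chromosome 17, stood at 15.4 ± 1.96 RPM in sham against 18.6 ± 1.05 RPM in mTBI.

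Most short circRNAs were seen in few animals, and most of the signal came from those seen in all. Of the 3902, 1803 (46.2%) were listed in 1 library only and held 1.51% of the short total. All 8 libraries listed 657 (16.8%), which held 90.1% of it, and 1442 (37.0%) were listed in 2 to 7. Among longer circRNAs, 39.0% were listed in 1 library and 17.5% in all 8. Each library had 189 to 241 short circRNAs that no other library listed, the highest of them at 0.328 RPM in sham replicate 2.

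A complete split between groups was rare. Of the 3902 short circRNAs, 1 was listed in all 4 sham libraries and in no mTBI library. Another 4 were listed in all 4 mTBI libraries and in no sham library. Among the 48093 longer circRNAs these counts were 45 and 43. The short and longer classes differ in size, and their shares were not tested against each other. Of the short circRNAs averaging at least 0.5 RPM, 4 of 167 (2.40%) were missing from some library, against 22 of 1708 longer ones (1.29%).

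Short circRNAs were less often tied to other circRNAs by a shared splice site. An end was shared, to the base and on the same strand, with at least 1 other circRNA in the table by 2102 (53.9%) of them. Over the circRNAs listed in a library, the share with a shared end was 46.9% ± 0.680 for short and 74.9% ± 0.539 for longer ones (SD, n = 8 libraries, exact sign-flip permutation test, two-sided, p = 0.00781, the smallest possible, lower in 8 of 8 libraries). Above 1000 bases, sharing was more common at longer spans, from 63.6% at 1001 to 2000 bases to 93.6% above 50000 bases. Against longer circRNAs of at most 10000 bases the difference was -15.3 percentage points, in place of -28.1.

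A longer partner is here any circRNA that shares an end with a short one and spans more bases than it does, whether above or below 1000; 1900 short circRNAs (48.7%) shared an end with a circRNA of over 1000 bases. Short circRNAs that shared both ends with longer partners carried the most signal for their number. They were 569 (14.6%) of the short circRNAs and held 38.2% of the short total, and 32.9% of them were listed in all 8 libraries. Sharing only the upstream end were 784 (20.1% of circRNAs, 21.4% of the total), and only the downstream end 659 (16.9% and 14.8%). A further 90 (2.31%) shared an end only with circRNAs no longer than themselves. No end was shared by 1800 (46.1%), which held 22.1% of the total, and 59.8% of these were listed in 1 library. Of the 1800, 1433 (79.6%) overlapped no other circRNA on their strand and 297 (16.5%) lay inside a longer one.

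**Figure D3:**
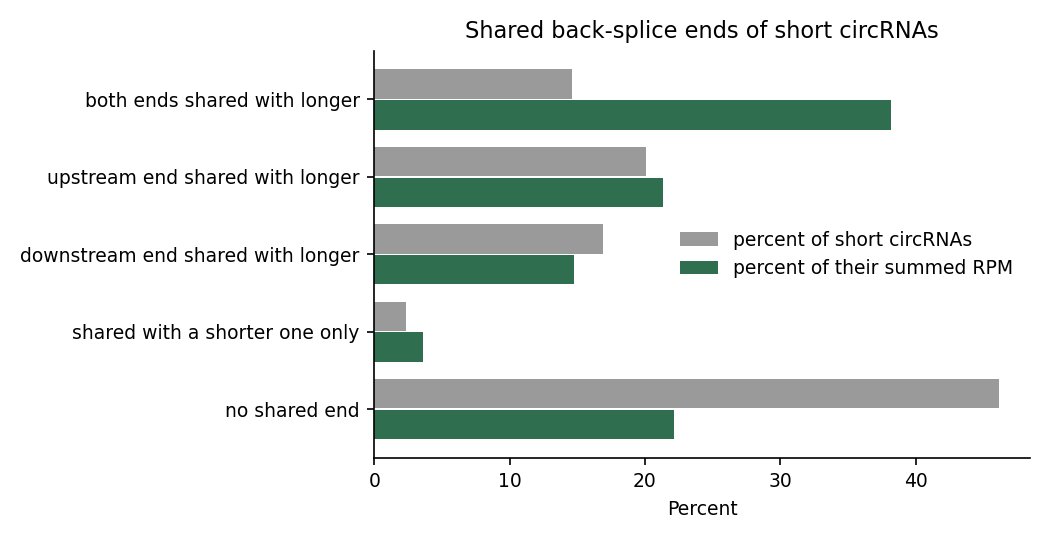
Percent of short circRNAs (grey) and percent of their summed RPM (green) by how their back-splice ends are shared (y axis). Circles with both ends shared with circRNAs longer than themselves are 14.6% of the number and 38.2% of the level, and those with no shared end are 46.1% and 22.1%.

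Where an abundant short circRNA shared an end with longer ones, it was usually the most abundant of them. Of the 2012 with a longer partner, 741 (36.8%) stood above every longer partner in mean level. This was so for 68 of the 79 (86.1%) with a mean of at least 1 RPM, which made up a median of 86.8% of the summed level of all circRNAs sharing their ends. The choice of abundant members favours such a share, so these are descriptions and were not tested.

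The range among those 79 was wide. At the top, the minus-strand chr9:99266783-99267021 (239 bases) held 99.8% of its group of shared ends, with 6.60 ± 0.209 RPM in sham against 6.39 ± 0.846 RPM in mTBI. Its 2 longer partners together reached at most 0.0516 RPM in any library. At the bottom, the plus-strand chr1:204960841-204961691 (851 bases) held 5.31%, at 1.03 ± 0.457 RPM in sham against 1.06 ± 0.0974 RPM in mTBI. The longer chr1:204959173-204961691, which shares its downstream end, stood at 16.9 ± 0.769 and 15.7 ± 0.898 RPM. A second circle of this kind was chr2:188308301-188309036 (plus strand, 736 bases), at 1.54 ± 0.146 and 1.51 ± 0.104 RPM, which held 18.8%. It shares its downstream end with chr2:188301023-188309036 at 5.75 ± 0.756 and 5.43 ± 0.433 RPM.

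Some pairs of short circRNAs had 1 end in common and the other within 30 bases. There were 80 such pairs, and a distance of 3 bases was found in 21 of them (26.3%), 19 at the upstream and 2 at the downstream end. A distance of 4 bases was found in 13. Among the 842 such pairs of longer circRNAs, 200 were 3 bases apart, 198 of them at the upstream end. The upstream end is the back-splice acceptor, where alternative sites a few bases apart are well known in linear splicing.

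Both forms of the most abundant pairs were listed in every animal, which allowed the use of the outer site to be compared. At chr10:35876013-35876397 on the plus strand, the outer form stood at 6.24 ± 0.9498 RPM in sham against 7.06 ± 1.84 RPM in mTBI, and the form starting 21 bases further in at 5.12 ± 0.992 and 5.56 ± 1.18 RPM. The outer form was 55.0% ± 4.81 of the pair in sham and 55.7% ± 2.34 in mTBI. At chr8:23048110-23048640 on the minus strand, the outer form was 77.0% ± 3.36 of its pair in sham and 76.5% ± 3.48 in mTBI, the inner form ending 3 bases earlier at 23048637. Both shares differed between groups by less than 1 SD (exact permutation test adjusted over 5 pairs, p = 0.886 for each).

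The outer form of chr6:131912740-131913105 on the minus strand was 62.9%, 60%, 58.6% and 59.2% of its pair in sham and 55.4%, 43.9%, 50.8% and 50.9% in mTBI. The groups did not overlap (difference -9.90 percentage points, exact permutation test, two-sided, p = 0.0286, the smallest possible, adjusted over 5 pairs p = 0.143). The outer form itself stood at 0.577 ± 0.0407 RPM in sham against 0.420 ± 0.0513 RPM in mTBI, and the form 3 bases shorter at 0.383 ± 0.0360 and 0.423 ± 0.113 RPM. The remaining pairs, at chr5:159643630-159643884 and chr17:87738589-87739349, had permutation-adjusted p-values of 0.238 and 0.214.

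Short circRNAs seldom occurred many together. Of 3477 sets of same-strand circRNAs joined by shared ends that held a short one, 3153 held 1 and 63 held 3 or more. The 3477 include the 1800 short circRNAs with no shared end, each counted as a set of its own. The set with the most, at chr9:100169913-100171439 on the minus strand, had 11 short circRNAs among 12. A single form, chr9:100170006-100170641 (636 bases), stood at 0.824 ± 0.189 RPM in sham against 0.831 ± 0.210 RPM in mTBI, and the set as a whole summed to 1.09 RPM. At chr5:47408676-47409577 on the minus strand, all 7 members were short and summed to 0.291 RPM, the highest, chr5:47408681-47409537, at 0.126 ± 0.0518 and 0.165 ± 0.0795 RPM. The level was thus concentrated in a leading form in the first set and more evenly spread in the second.

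Variation between animals of a group was smaller at higher levels, and its median was close for short and longer circRNAs. The median coefficient of variation was 0.397 for short and 0.386 for longer circRNAs at 0.1 to 0.3 RPM, 0.158 for both at 1 to 3 RPM, and 0.112 and 0.120 at 3 RPM or more. A coefficient above 0.5 was found for 72 of 297 short circRNAs (24.2%) and 984 of 4255 longer ones (23.1%) at 0.1 to 0.3 RPM, and for 10 of 174 (5.75%) and 74 of 1954 (3.79%) at 0.3 to 1 RPM. It was found for 5 of 74 (6.76%) and 10 of 594 (1.68%) at 1 to 3 RPM, and for 0 of 25 and 5 of 189 (2.65%) at 3 RPM or more, so the order was not the same in all 4 ranges. At a mean of at least 1 RPM, 4 of 99 short circRNAs (4.04%) and 7 of 783 longer ones (0.894%) differed at least 10-fold between libraries, a 0 included. These shares were not tested against each other.

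The widest spread was that of chrX:119152559-119152714 on the plus strand, which at 156 bases was also the shortest circRNA listed in all 8 libraries. It measured 3.04, 0.0786, 0.104 and 3.85 RPM in the sham animals and 1.26, 0.0515, 2.89 and 0.0779 RPM in the injured ones. Levels were thus above 1 RPM in sham replicates 1 and 4 and mTBI replicates 1 and 3, and at or below 0.104 RPM in the other 4 animals. Its longer partner chrX:119151804-119152714 was listed in 3 libraries, all of them among those 4 high ones, at 0.0904 RPM in sham replicate 1, 0.168 RPM in sham replicate 4 and 0.143 RPM in mTBI replicate 3.

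A different pattern was seen at chr2:224802843-224803455 on the minus strand (613 bases). The short circRNA measured 1.86, 0.0524, 1.97 and 0.103 RPM in the sham animals and 1.73, 2.02, 0.130 and 2.37 RPM in the injured ones, low in sham replicates 2 and 4 and in mTBI replicate 3. The summed level of its 5 longer partners was 3.579, 3.002, 3.89 and 2.99 RPM in sham and 3.51, 3.22, 3.30 and 3.11 RPM in mTBI. The partner sums in sham were also lower in replicates 2 and 4 than in replicates 1 and 3, though by a smaller factor than the short form, while in mTBI replicate 3 the sum lay among those of the other 3 animals. The most abundant partner, chr2:224794357-224803455, was likewise lower in those 2 sham animals, at 2.95, 2.14, 3.07 and 2.17 RPM in sham replicates 1 to 4.

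A pair of abundant short circRNAs were listed at 0 in 2 animals each. The minus-strand chr6:59301040-59301308 (269 bases) measured 2.56, 2.61, 2.41 and 0 RPM in the sham animals and 3.35, 0, 3.65 and 3.39 RPM in the injured ones. In sham replicate 4, where it was listed at 0, the shorter chr6:59301040-59301250 was listed at 0.232 RPM, and no other library listed that form. The minus-strand chr4:67427304-67428261 (958 bases) measured 1.49, 1.13, 1.28 and 1.84 RPM in the sham animals and 0, 0, 1.19 and 1.35 RPM in the injured ones. Its longer partner chr4:67407327-67428261 was listed at 0 in the same 2 mTBI animals and at 0.297 to 0.425 RPM in the other 6. These were also the 2 libraries with the lowest circRNA totals, at 4966 and 5002 RPM against 5148 RPM in sham replicate 2. The part of the totals in this was not tested. In those 2 animals its 4 longer partners together summed to 0.0258 and 0.0257 RPM.

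**Figure D4:**
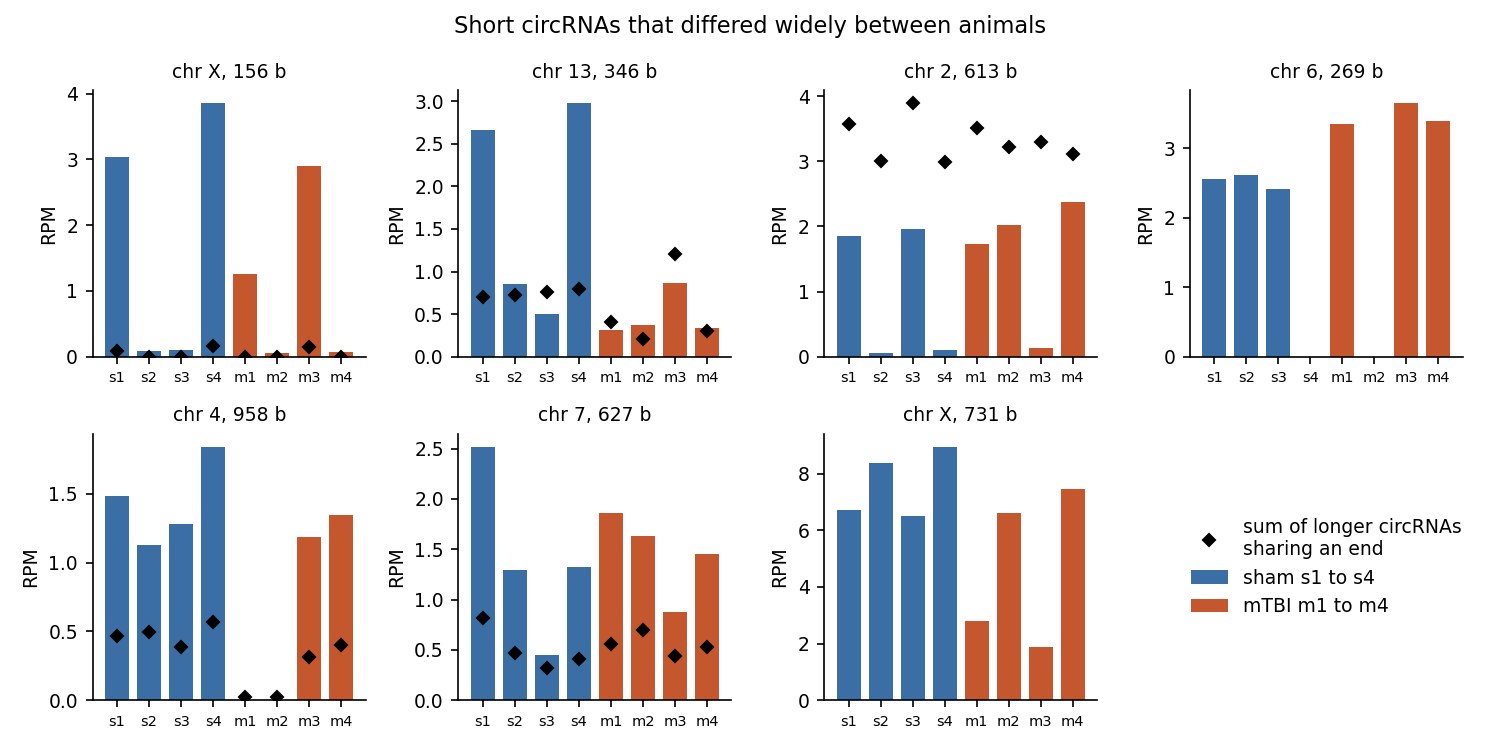
Level in RPM (y axes, linear from 0) in each of the 8 libraries for 7 short circRNAs: the 6 with the highest coefficient of variation among those averaging at least 1 RPM, and the 731-base circRNA on chromosome X. Diamonds give the sum of longer circRNAs sharing an end, which the 269-base and 731-base circRNAs lack, and lie between 2.99 and 3.89 RPM on chromosome 2, where the lowest value of the short circle is 0.0524 RPM.

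The steadiest circles at a mean of at least 1 RPM included both leaders named above and 2 at lower levels. The minus-strand chr5:106171074-106171781 (708 bases) measured 2.29, 2.56, 2.21 and 2.22 RPM in the sham animals and 2.03, 2.19, 2.21 and 2.17 RPM in the injured ones. The plus-strand chr10:5930383-5930975 (593 bases) measured 1.43, 1.43, 1.53 and 1.29 RPM in the sham animals and 1.21, 1.09, 1.17 and 1.17 RPM in the injured ones. For the second the groups did not overlap, and the log2 change was -0.28 with an SE of 0.17 (adjusted p = 0.973, limma).

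The totals of short circRNAs did not separate injured from sham cortex. They summed to 553 ± 15.1 RPM in sham against 552 ± 39.2 RPM in mTBI (exact permutation test over 70 assignments, two-sided, p = 1; the smallest possible p is 0.0286). Their share of all circRNA signal was 10.2% ± 0.179 and 10.3% ± 0.248 (exact permutation p = 0.343, adjusted over 3 comparisons p = 0.514). The difference of 0.156 percentage points was 0.0328 without mTBI replicate 2 and 0.236 without sham replicate 2. The number listed was 1573 ± 42.7 and 1604 ± 14.1 (exact permutation p = 0.229, adjusted p = 0.514).

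No single short circRNA passed the test between groups. Testing required listing in at least 4 of the 8 libraries, which 1380 (35.4%) met and 2522 did not. With limma, 0 of the 1380 passed an adjusted p of 0.05, against 0.00991% higher and 0.0149% lower among all 20174 circRNAs tested, and limma voom on the read steps also gave 0. At an unadjusted p under 0.05, limma gave 74 (5.36%; all tested 4.68%) and limma voom 79. Of the 74, 45 were higher in mTBI (3.26%; all tested 2.32%) and 29 lower (2.10%; all tested 2.35%). The groups did not overlap for 38 (2.75%; all tested 2.81%), of which 23 were higher (1.67%; all tested 1.39%) and 15 lower (1.09%; all tested 1.41%).

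Changes of 1 or more on the log2 scale were estimated for 64 short circRNAs (4.64%; all tested 5.42%), and 972 (70.4%; all tested 70.1%) stayed under 0.5. The median log2 change was 0.03 for short circRNAs and -0.02 for all. These values are on the log2(RPM + 0.0259) scale, on which changes of low circRNAs come out too small.

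**Figure D5:**
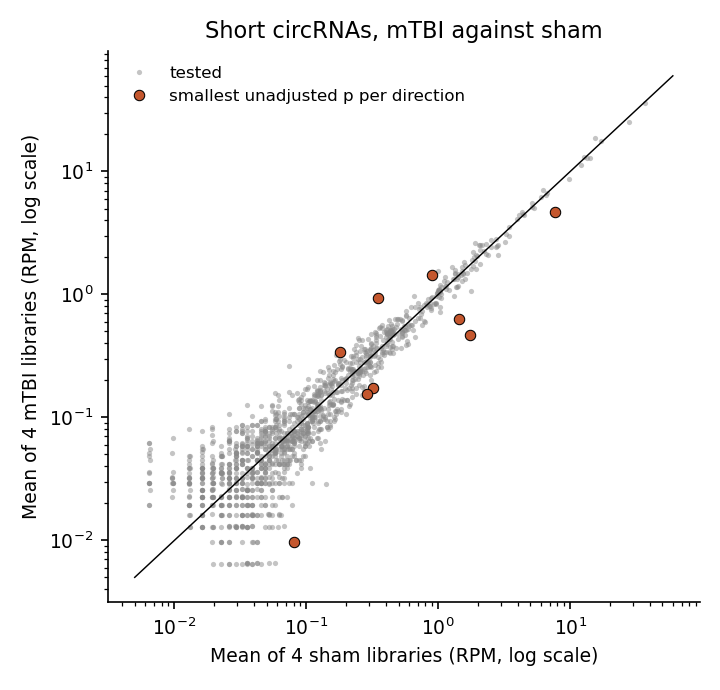
Mean level in 4 mTBI libraries (y axis) against the mean in 4 sham libraries (x axis), both in RPM on log scales, for 1375 tested short circRNAs. The line marks equal levels, filled circles mark 9 of the 12 with the smallest unadjusted p per direction, and 5 tested circRNAs at 0 in a whole group cannot be drawn.

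Of the 6 short circRNAs with the smallest p in the higher direction, the first was chr1:221185801-221186464 on the minus strand (664 bases). It measured 0.181, 0.118, 0.272 and 0.825 RPM in the sham animals and 0.581, 1.30, 0.756 and 1.09 RPM in the injured ones (log2 change 1.63 with an SE of 0.35; adjusted p = 0.110, limma). Sham replicate 4 lay within the mTBI range, and without it the limma adjusted p was 0.000912, with a range of 6.54e-06 to 0.849 over all alternatives. The sum of its 4 longer partners was 0, 0, 0.0259 and 0.400 RPM in sham and 0.168, 0.386, 0.104 and 0.350 RPM in mTBI, high in that same sham animal. The set it belongs to held 6 short circRNAs among 12 and summed to 0.915 RPM.

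The minus-strand chr9:43004144-43004499 (356 bases) measured 0.569, 0.813, 1.501 and 0.709 RPM in the sham animals and 1.59, 1.27, 1.46 and 1.39 RPM in the injured ones (log2 change 0.74 with an SE of 0.22; adjusted p = 0.675, limma). Sham replicate 3 reached the mTBI range, and without it the limma adjusted p was 0.0458, the lowest of a range up to 0.994 over all alternatives. The minus-strand chr20:5851258-5852092 (835 bases) measured 0.103, 0.170, 0.207 and 0.245 RPM in the sham animals and 0.413, 0.309, 0.326 and 0.324 RPM in the injured ones, without overlap (log2 change 0.87 with an SE of 0.30; adjusted p = 0.866, limma). Its longer partner chr20:5851258-5853847 stood at 0.275 ± 0.115 and 0.288 ± 0.0821 RPM.

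The other 3 were listed in all mTBI and in no sham libraries. The minus-strand chr7:117149337-117149558 (222 bases) stood at 0.0645, 0.0515, 0.0651 and 0.0519 RPM in mTBI. For chr14:82129854-82130545 on the minus strand the mTBI values ran from 0.0386 to 0.104 RPM, and for chr10:85329708-85330427 on the plus strand from 0.0258 to 0.0772 RPM. All were close to the smallest value a library can list, 0.0257 to 0.0262 RPM. They met the filter of 4 listed libraries only through the mTBI group, so no p-value is given for them.

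In the lower direction, the first was chr13:83256698-83257043 on the minus strand (346 bases). It measured 2.66, 0.852, 0.505 and 2.98 RPM in the sham animals and 0.310, 0.373, 0.860 and 0.337 RPM in the injured ones (log2 change -1.61 with an SE of 0.36; adjusted p = 0.167, limma). Sham replicates 1 and 4 were far above the rest, while sham replicates 2 and 3 lay within the mTBI range. Without sham replicate 3 the limma adjusted p was 0.00197. Over all alternatives it ran from 2.43e-08, with no filter on low values, to 0.973. Its 4 longer partners summed to 0.698 to 0.799 RPM in sham and to 0.413, 0.206, 1.21 and 0.298 RPM in mTBI.

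The largest of these 12 estimates belonged to chr4:67427304-67428261, whose values are given above, and it rested on the 2 mTBI animals at 0. Its limma adjusted p was 0.396, and 0.0478 without mTBI replicate 4. Over all alternatives it ran from 1.50e-23, with no filter on low values, to 0.990. The unfiltered fit also took in circRNAs listed in fewer than 4 libraries. The p-values of that fit are not read here as a measure of the spread between animals. The most abundant was chrX:82845576-82846306 on the minus strand (731 bases), which measured 6.73, 8.38, 6.495 and 8.96 RPM in the sham animals and 2.80, 6.60, 1.89 and 7.46 RPM in the injured ones (log2 change -0.91 with an SE of 0.25; adjusted p = 0.551, limma). mTBI replicates 1 and 3 were low and the other 2 lay within the sham range. The log2 change was -0.55 without mTBI replicate 3 and -1.20 without mTBI replicate 4, with the other single omissions between these values. Over the alternatives its limma adjusted p lay between 4.36e-11 (low circRNAs kept in) and 0.991. The short chrX:82845848-82846306, with the same upstream end, was low in the same 2 animals, at 0.942 and 0.808 RPM against 2.47 to 3.37 RPM in the other 6. Another short form, chrX:82845576-82846126, was listed in those same 2 animals only, at 0.0645 and 0.0651 RPM.

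The remaining 3 in the lower direction were at low levels. The plus-strand chr3:154869699-154870401 (703 bases) stood at 0.321 ± 0.0577 RPM in sham against 0.174 ± 0.0946 RPM in mTBI. The minus-strand chr3:165026926-165027724 (799 bases) stood at 0.288 ± 0.0455 and 0.155 ± 0.0503 RPM. The plus-strand chrX:80043452-80044279 (828 bases) was listed in all 4 sham libraries at 0.0518 to 0.118 RPM and in mTBI replicate 2 alone, at 0.0386 RPM. Each of these had non-overlapping groups. The limma adjusted p was 0.947 for chr3:154869699-154870401 and 0.973 for chr3:165026926-165027724. The circRNA on chromosome X met the filter through its 4 sham libraries, so no p-value is given for it.

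Whether the balance between a short circRNA and the longer ones using its splice sites differed with injury was tested as a log2 ratio. For 688 short circRNAs both the circRNA and its longer partners were listed in at least 4 libraries. With limma, 0 of them passed the adjusted threshold, as did 0% of all 11322 tested, and 37 (5.38%; all tested 5.25%) had an unadjusted p under 0.05, with the ratio higher in mTBI for 20 (2.91%; all tested 2.93%) and lower for 17 (2.47%; all tested 2.31%). Groups without overlap were found for 20 (2.91%; all tested 2.89%), 12 higher (1.74%; all tested 1.59%) and 8 lower (1.16%; all tested 1.30%). The ratio moved by 1 or more on the log2 scale for 80 (11.6%; all tested 12.2%) and by less than 0.5 for 423 (61.5%; all tested 60.4%), and the median log2 change of the ratio was 0.07 for short circRNAs and 0.02 for all.

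The smallest p-values of the ratio came mostly from low circRNAs. At chr4:145749084-145749326 (minus strand, 243 bases) the groups overlapped for the short form, at 0.0745 ± 0.0322 and 0.0712 ± 0.0248 RPM. Its longer partner chr4:145749084-145756531 measured 0.155, 0.183, 0.129 and 0.219 RPM in the sham animals and 0, 0.0257, 0.0261 and 0.0649 RPM in the injured ones (log2 change of the ratio 1.93 with an SE of 0.44; adjusted p = 0.640, limma). At chr2:188127807-188128630 (minus strand, 824 bases) the short form stood at 0.975 ± 0.109 and 1.02 ± 0.182 RPM, and its longer partner was listed in the 4 sham libraries at 0.0258 to 0.0393 RPM and in no mTBI library. That partner met the filter only through the sham group, so no p-value is given for the ratio.

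In the other direction, the plus-strand chr10:89471731-89472021 (291 bases) was listed in all 4 sham libraries at 0.0258 to 0.0655 RPM and in mTBI replicate 3 alone, at 0.0261 RPM. Its 2 longer partners summed to 0 to 0.0647 RPM in sham and to 0.0772 to 0.117 RPM in mTBI (log2 change of the ratio -2.16). The short form met the filter through its 4 sham libraries, so no p-value is given for this ratio. The plus-strand chr4:21482780-21483635 (856 bases) stood at 0.130 ± 0.0181 RPM in sham against 0.0549 ± 0.0616 RPM in mTBI. Its longer partner measured 0, 0.0393, 0 and 0 RPM in the sham animals. In the injured ones that partner measured 0.0645, 0.0900, 0.0261 and 0 RPM, and the limma adjusted p of the ratio was 0.652.

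Levels just inside and just outside the span limit varied from circRNA to circRNA. Inside it, among those listed in all 8 libraries, chr7:115766486-115767484 (999 bases) averaged 0.123 ± 0.0484 RPM in sham against 0.0679 ± 0.0286 RPM in mTBI, and chr3:177131326-177132323 (998 bases) 0.246 ± 0.0697 and 0.298 ± 0.0173 RPM. Outside it, chr10:6991635-6992636 (1002 bases) averaged 0.952 ± 0.191 and 0.974 ± 0.112 RPM, and chr8:113996116-113997121 (1006 bases) 0.0421 ± 0.0243 and 0.0485 ± 0.0220 RPM.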

How the data were processed

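Total RNA from the cortex of 4 sham and 4 mTBI rats was sequenced as stranded, ribosomal RNA depleted libraries, per the labels' protocols. The authors deposited RPM values for 8 libraries, with chromosome, start, end and strand of each circRNA, per the file headers. Trimmomatic 0.36 and the build Rnor 6.0 are named in the submitters' processing notes. Which aligner and circRNA caller were used is not given in the sources used here. All values above 0 were whole multiples of 0.5 times the smallest listed one, so the smallest was read as 2 reads.

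Levels were tested in R 4.3.3 by limma 3.58.1 (intensity trend, two-sided, Benjamini-Hochberg over 20174 circRNAs listed in at least 4 of 8 libraries) on log2(RPM + 0.0259). The ratio of each circRNA to the summed level of all longer than itself with the same start or end was tested alike over 11322. Totals were compared by exact permutation tests. Binomial intervals are exact, at 95%, and cover counting error only. Functions were tested on simulated data. Python 3.11.15, numpy 2.4.6, pandas 2.3.3, scipy 1.17.1 and matplotlib 3.10.9 were used.

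The named circRNAs are the 12 most abundant, 6 per direction by p, up to 4 per direction by the ratio, 6 with the highest and 4 with the lowest coefficient of variation, those nearest the span limit and the shortest, 4 with the highest and 4 with the lowest share of their shared ends, and the 4 sets with most short circRNAs. Not all are described with values. Further circRNAs named as partners or pairs, and the 5 compared pairs, were chosen after their values were seen. Members and lists were chosen with earlier results of these data known. Alternatives covered pseudocount, filter, scaling, variance model, span limit, end matching and each library left out. A planned count-based fit was replaced by limma voom, since the deposited values are RPM.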

Additional observations from a re-analysis of the deposited data

Results flagged for a closer look

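In 11 of 108 groups of 4 libraries, 1 library stood far from the other 3. The value in brackets is the distance from that library to its closest neighbour divided by the whole range of the 4, which Dixon's test at 95% marks when large. For unselected groups of normally distributed values, chance alone marks about 1 in 20, or 5.4 of 108. Many of the circRNAs here were named for a wide spread or a small p, so 11 cannot be set against 5.4. The share of the summed level held by short circRNAs was marked in mTBI (0.896), where replicate 2 stood at 10.7% and the others at 10.2%. Among abundant circRNAs, chr17:29730437-29731094 was marked in mTBI (0.936), with replicate 4 at 20.2 RPM and the others at 18.0 to 18.1 RPM. The 269-base chr6:59301040-59301308 was marked in sham (0.923) and in mTBI (0.920), since it was listed at 0 in 1 animal of each group. In sham, chr2:188485333-188486213 (0.889) stood at 2.14 RPM in replicate 1 and at 0.970 to 1.10 RPM in the others, and chr2:188127807-188128630 (0.836) at 1.14 RPM in replicate 1 and at 0.906 to 0.944 RPM in the others. In mTBI, chr13:83256698-83257043 (0.885) stood at 0.860 RPM in replicate 3 and at 0.310 to 0.373 RPM in the others, and chr20:5851258-5852092 (0.837) at 0.413 RPM in replicate 1 and at 0.309 to 0.326 RPM in the others. For chr10:89471731-89472021, chrX:80043452-80044279 and chrX:115017927-115018348 the value was 1 in mTBI, because 1 library listed them and 3 did not.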

How the results depend on the processing

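The count of short circRNAs past the threshold, 0 of 1380 by limma (5 of 20174 circRNAs of any span), became 2 with a pseudocount of 4 times the smallest value (10 of any span), 1 with libraries centred on their median (9 of any span) and 1 with robust variance shrinkage (23 of any span). With no filter on low values it was 9 of 3902 (0.231%), against 55 of 51995 of any span (0.106%). When libraries were left out one at a time, 0 to 2 passed: 2 without sham replicate 3, 1 without sham replicate 4 and 1 without mTBI replicate 4, with 2 to 9 of any span over the 8 omissions. The chr1:221185801-221186464 circRNA passed in 5 of these alternatives, chr13:83256698-83257043 in 3 and chr4:67427304-67428261 in 2. The count for the ratio to longer circRNAs was 0 in every alternative run. The difference in summed level, -0.213 RPM, was 2.33 RPM with a limit of 500 bases and 4.06 RPM without the 2 most abundant short circRNAs, and -16.1 to 14.3 RPM when each library was left out. The difference in share ran from 0.0328 to 0.236 percentage points when each library was left out. The difference in the number listed, 30.8, became -4.25 when only values of at least 5 times the smallest were counted, and 10.7 to 42.7 when each library was left out. The higher mean level of short circRNAs became a difference of 0 with the median (exact permutation p = 1) and stayed at 0.115 to 0.120 RPM without each library. The cause of these shifts was not tested. With the replicate number as a block, the differences were -0.213 RPM, 0.156 percentage points and 30.8 circRNAs (exact permutation p = 1, 0.125 and 0.375), and 0 circRNAs passed in the level and ratio tests. The replicate numbers did not pair the libraries: same-numbered ones had correlations of deviations of 0.0242, -0.0143, 0.00691 and 0.00142 over 9082 circRNAs. Of 188 values of 12 single log2 changes, 176 kept their side of the threshold, 12 passed it and 0 reversed, and all 100 values of 8 ratios kept theirs. A planned edgeR fit was not run, limma voom was added after seeing the data, and centring, which cancels in a ratio, was not run there. Values near the smallest listed one, 0.0257 to 0.0262 RPM, rest on a few reads and limit what low circRNAs can show.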

Other observations

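Spans of at most 400 bases were divisible by 3 in 504 of 1291 circRNAs (39.0%, 95% exact binomial interval 36.4% to 41.8%). For spans of 401 to 1000 bases this share was 32.4% (30.6% to 34.2%), and for longer ones 33.3% (32.9% to 33.7%). Within the short class of at most 400 bases, the share was 33.0% (61 of 185) among those listed in all 8 libraries and 40.6% among the 662 listed in 1 library. The cut at 400 bases lies where the share fell, from 37.2% at 301 to 400 bases to 33.3% at 401 to 500, and the intervals take no account of that. CircRNAs that share ends are not independent of each other, and the difference was not tested.

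Chromosomes differed in how much of their circRNA level came from short spans. It was 29.9% on chromosome 19, where chr19:25886356-25886887 alone made up most of the 36.5 RPM. On chromosome 15 it was 24.7%, where chr15:47963486-47964008 alone averaged 17.5 of the 32.2 RPM. The share was 2.90% on chromosome 13 and 4.45% on chromosome 4. By number, short circRNAs were 10% of those on chromosome 19, 7.19% on chromosome 15 and 6.12% on chromosome 13.

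Besides chrX:82845576-82846306, described above, another 5 short circRNAs passed the limma threshold only where no filter on low values was used. Of these 5, all but chr2:224802843-224803455, described above for its spread, were named after their values were seen. The plus-strand chr3:123077758-123078115 was listed at 0 in sham replicate 3 and at 0.656 to 1.01 RPM in the other 7 libraries, and chr2:257942346-257942718 at 0 in sham replicate 1 and at 0.443 to 0.787 RPM in the others. The plus-strand chr8:90683977-90684250 was listed in sham replicates 1 and 3 only, at 0.827 and 0.518 RPM. The others were chr2:224802843-224803455, low in sham replicates 2 and 4 and in mTBI replicate 3, and chrX:82845848-82846306, low in mTBI replicates 1 and 3.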
